A study of Mus musculus with 19 samples.

Results

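The epithelial cadherins and simple keratins studied here are 10 genes chosen by symbol: Epcam, Cdh1, Cdh3, Cdh17, Krt7, Krt8, Krt18, Krt19, Krt20 and Krt23. All 10 were found among the 24062 genes of the bulk count table and among the 31053 genes of the single-cell matrix. Bulk RNA sequencing covered 15 libraries. The adult libraries held colonic epithelial cells of animals on a mixed C57BL/6 129/Sv strain, sorted on mCherry or GFP. Regenerating cells (2 libraries) were genetically wild type, carried Ascl2(mCh), a reporter of the crypt stem cell factor Ascl2, together with Lgr5Dtr-Egfp, which puts a toxin receptor and GFP under Lgr5, and came from mice given 50 ug/kg diphtheria toxin every other day, 4 times. Ascl2 KO cells (2 libraries) were labelled colon stem cells with the alleles Ascl2Fl/Fl and Lgr5EGFP-Cre, after tamoxifen (2 mg on days 1 and 2, 1 mg on day 3). Wild-type colon stem cells (3 libraries) carried the same reporter and Lgr5 alleles as the regenerating cells, with no treatment named for them. The hindgut libraries held Epcam+ cells of wild-type CD1 embryos at E11, E12, E14 and E16 (2 libraries each). A single-cell library without a replicate held mCherry-positive, GFP-negative cells on day 8 of regeneration. Its label also names 4 injections of diphtheria toxin at 50 ug/kg.

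Several features limit these groups as models. Genotype, Lgr5 allele, tamoxifen and sort differ together between Ascl2 KO and the other adult groups, so their parts cannot be told apart. Deletion depends on a Cre driven from Lgr5, which marks stem cells at the crypt base. The labels name no separate animals for the adult replicates, so p-values there measure the spread between libraries, which may be technical. Ascl2 itself, the deleted gene, stood at 53.8 and 59.2 CPM in Ascl2 KO, against 110, 151 and 104 CPM in wild type (log2 fold change -1.11 ± 0.27 SE, edgeR quasi-likelihood adjusted p = 0.0115). The deleted part of the gene is not given in the sources used here, so these reads check the genotype only in part. For bulk libraries, CPM stands for read counts divided by the library's effective size, corrected by trimmed means (TMM). For the single-cell library it stands for summed molecule counts over all molecule counts of the same cells or droplets, without TMM. Bulk and single-cell CPM are therefore not on the same scale.

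Epcam is a homophilic adhesion molecule of epithelial membranes and the protein on which the embryonic cells were sorted. Classical cadherins (E-cadherin, Cdh1; P-cadherin, Cdh3) hold neighbouring cells together through calcium and are tied to actin by catenins, whereas Cdh17, the liver-intestine cadherin, has a short tail that binds no catenin. Keratins are intermediate filaments built from pairs of a type II (Krt7, Krt8) and a type I chain (Krt18, Krt19, Krt20, Krt23), anchored at desmosomes. Krt8, Krt18 and Krt19 are found throughout the simple epithelium of the gut, and Krt20 marks differentiated cells near the luminal surface.

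In GRCm38.p6, Krt7, Krt8 and Krt18 lie together on chromosome 15 (101412403 to 101427806, 101996711 to 102004342 and 102028216 to 102032026), and Krt20, Krt23 and Krt19 on chromosome 11 (99428385 to 99438153, 99477973 to 99493120 and 100140810 to 100145926). Cdh3 and Cdh1 are neighbours on chromosome 8 (106510852 to 106556911 and 106603350 to 106670247). Cdh17 is on chromosome 4 (11758157 to 11817905) and Epcam on chromosome 17 (87635979 to 87651127). Sequence of the 250 bases before the start was at hand from RefSeq (GRCm38.p6) for 6 members: Krt7, Krt8, Krt18, Krt20, Krt23 and Epcam. The promoters of 4 keratins are shown because Krt7 and Krt20 were highest in different clusters of the day 8 cells, and because Krt8 and Krt18 differed in course although their proteins pair. Each is written 5′ to 3′ on the gene's strand and ends at the base before the start. Capitals mark CACCTG or its reverse complement CAGGTG, the core letters of an E-box that Snail and Zeb repressors bind.
Krt7, chr15:101412153-101412402, plus strand: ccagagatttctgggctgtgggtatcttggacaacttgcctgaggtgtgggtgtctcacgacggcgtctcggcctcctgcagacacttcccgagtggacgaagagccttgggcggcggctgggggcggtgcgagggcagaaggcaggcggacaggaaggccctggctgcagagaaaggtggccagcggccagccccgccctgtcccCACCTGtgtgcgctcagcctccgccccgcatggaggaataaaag
Krt20, chr11:99438154-99438403, minus strand: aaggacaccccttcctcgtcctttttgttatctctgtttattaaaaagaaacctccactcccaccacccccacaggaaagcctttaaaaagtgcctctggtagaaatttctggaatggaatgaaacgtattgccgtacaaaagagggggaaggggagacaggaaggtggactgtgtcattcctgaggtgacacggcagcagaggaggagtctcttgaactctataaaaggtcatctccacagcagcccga
Krt8, chr15:102004343-102004592, minus strand: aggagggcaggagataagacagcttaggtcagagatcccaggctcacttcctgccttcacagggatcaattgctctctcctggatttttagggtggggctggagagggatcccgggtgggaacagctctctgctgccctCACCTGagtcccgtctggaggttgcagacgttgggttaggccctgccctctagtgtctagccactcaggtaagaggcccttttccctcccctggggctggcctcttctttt
Krt18, chr15:102027966-102028215, plus strand: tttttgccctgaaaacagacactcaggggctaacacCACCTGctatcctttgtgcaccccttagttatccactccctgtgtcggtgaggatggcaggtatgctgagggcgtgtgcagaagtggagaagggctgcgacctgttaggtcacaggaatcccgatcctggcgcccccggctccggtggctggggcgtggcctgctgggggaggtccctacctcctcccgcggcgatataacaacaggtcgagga
The letters were found 44 bases before the start of Krt7, 111 before that of Krt8 and 214 before that of Krt18, and not in the window of Krt20. Epcam held them at 187 and 19 bases and Krt23 at 232 bases before the start. Searched on both strands, 5 of the 6 windows held a match, beside 5657 of 32851 RefSeq promoters of the same length (17.2%). A match is a description of the letters and was not tied to binding.

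Counts assigned to genes came to between 13826958 and 30583908 per bulk library. The TMM scaling factors were 0.616 and 0.660 in Ascl2 KO and 1.11 to 1.32 in the other adult libraries. On library size alone the median of all genes lay at -1.001 (log2) in Ascl2 KO against wild type and at -0.02 after TMM, so adult changes below are relative to that shift. The share of reads that did not map uniquely was 51.2% and 51.4% in Ascl2 KO, against 39.1% to 40.2% in wild type. Krt8 has an annotated pseudogene (Krt8-ps), so its counts are uncertain to the extent that such reads were dropped or split. In bulk libraries, fewer cells of a type and less RNA per cell cannot be told apart.

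Setting regenerating cells beside wild-type stem cells asks whether cells refilling the crypt differ in their epithelial adhesion and filament genes. No member passed the test. Among the adhesion genes, Epcam stood at 2447 and 2648 CPM in regenerating cells, against 2813, 1886 and 2917 CPM in wild type, and the groups overlapped. Cdh1 stood at 421 and 473 CPM in regenerating cells, against 505, 489 and 520.1 CPM in wild type. The regenerating libraries were the lower ones, by -0.17 ± 0.19 (log2, SE; adjusted p = 0.896). Cdh17 stood at 223 and 271 CPM in regenerating cells, against 356, 246 and 339 CPM in wild type, with overlap.

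Cdh3 was below the count minimum of the adult fit and was not tested. It had 6 and 67 reads in the regenerating libraries, 4 and 1 in Ascl2 KO, and 0 in each of the wild-type libraries. The wild-type count of 0 allows up to 0.0300 CPM over the group (3 reads), and 67 of the 73 regenerating reads came from replicate 2.

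The keratins of regenerating cells were not all on the same side of wild type. Krt8 had 5301 and 4523 CPM in regenerating cells, against 3350 CPM, 3206 CPM and 4177 CPM in wild type, so both regenerating libraries were above all wild-type ones (log2 fold change 0.46 ± 0.21 SE, adjusted p = 0.507). Krt19 ran the other way, with 3136 and 3464 CPM in regenerating cells, against 4264, 4735 and 5479 CPM in wild type (-0.55 ± 0.21, adjusted p = 0.394). Krt7 had 619 and 722 CPM in regenerating cells, against 377, 616 and 418 CPM in wild type (0.51 ± 0.28, adjusted p = 0.609). Here too the groups did not overlap, but wild-type replicate 2 came close. Krt18 overlapped fully, at 1354 and 1779 CPM in regenerating cells, against 1168, 2022 and 1200.5 CPM in wild type.

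Krt23, a type I keratin of less known function, was the lowest-p member. It had 6.998 and 6.44 CPM in regenerating cells, against 17.9, 32.4 and 16.1 CPM in wild type, a log2 fold change of -1.72 ± 0.42 (SE) with an unadjusted p of 0.00265 and an adjusted p of 0.170. The adjusted p was 0.00437 in DESeq2 and 0.0453 without a filter on low counts, and Krt23 was the member each of them called. Krt20 had 23.9 and 119 CPM in regenerating cells, against 575, 52.9 and 688 CPM in wild type (-2.62 ± 1.14, adjusted p = 0.467). Wild-type replicate 2 was the low library for Krt20, and it was also the lowest wild-type library for the summed CPM of 12 colonocyte markers, at 3644, with 11092 and 21349 in replicates 1 and 3. The regenerating libraries had 3513 and 8450 by the same sum, with no marker at 0 in any of these libraries. The 7 deep crypt secretory markers summed to 30527 and 47371 CPM in regenerating cells, against 4032, 2563 and 5439 CPM in wild type, with 5 of 7 called higher and none at 0. The part of these cells in the keratin values was not tested.

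In all, 0 of the 9 members tested passed in regenerating against wild-type cells, beside 0.331% of all 13911 genes tested (0.302% higher and 0.0288% lower). At an unadjusted p under 0.05 there were 3 members and 1460 genes, DESeq2 called 1 member, and 5 of 9 members did not overlap between the groups, beside 28.9% of all genes. The median over the members was -0.17 (log2), beside 0.01 over all genes.

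**Figure D1:**
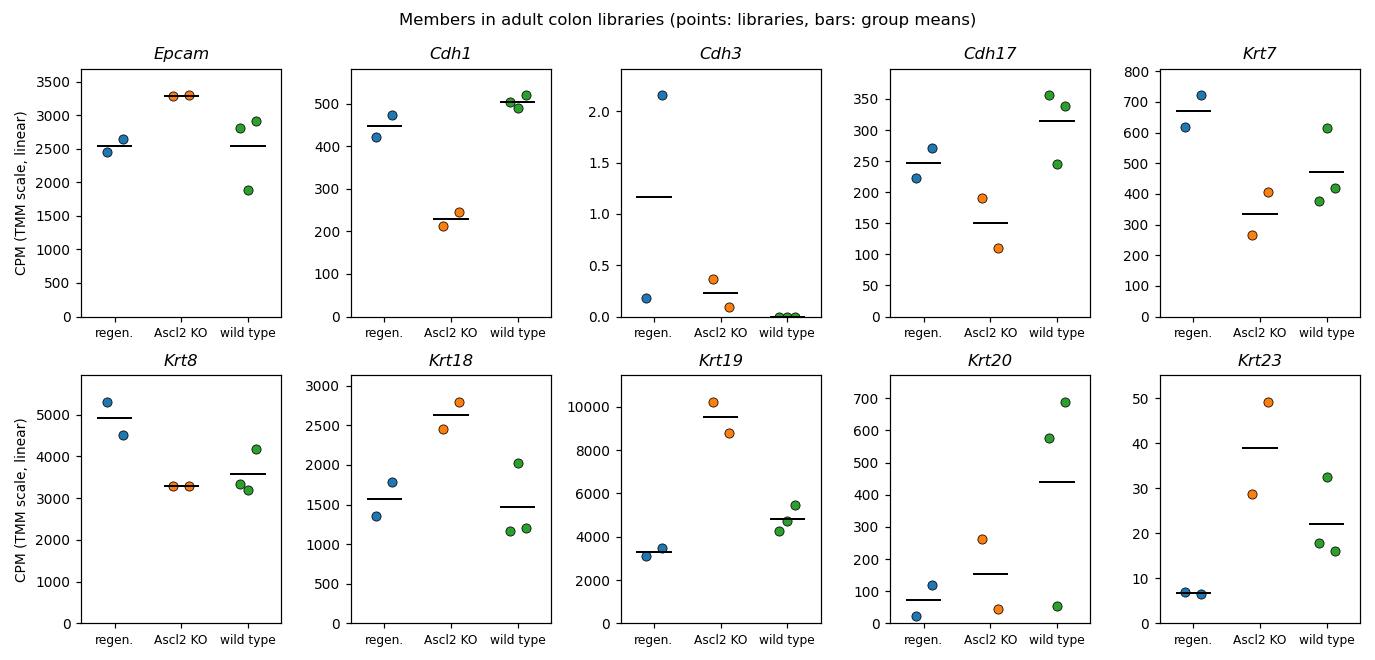
CPM of each member (linear axes from 0, TMM scale) in regenerating, Ascl2 KO and wild-type libraries; points are libraries and bars are group means. Cdh1 is lowest and Krt19 highest in both Ascl2 KO libraries, Krt23 is lowest in both regenerating libraries, and Krt20 spreads from 52.9 to 688 CPM within wild type.

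Ascl2 KO and wild-type stem cells differed in 4 of the 9 members tested, beside 36.2% of all genes, so the share of members is near that of genes at large. Both cadherins tested were lower in Ascl2 KO, beside 17.4% of genes called lower, and 2 type I keratins were higher, beside 18.8% called higher. By library size the members called were 0 higher and 5 lower (Epcam, Cdh1, Cdh17, Krt7 and Krt8), and over all genes 1233 were called higher and 5328 lower. The groups did not overlap for 5 of 9 members, beside 58% of genes. Cdh1 had 213 and 245 CPM in Ascl2 KO, against 505, 489 and 520.1 CPM in wild type. All Ascl2 KO libraries lay below all wild-type ones, by -1.14 ± 0.19 (log2, SE; edgeR adjusted p = 0.00208). Cdh17 had 190.1 and 110.1 CPM in Ascl2 KO, against 356, 246 and 339 CPM in wild type (-1.06 ± 0.29, adjusted p = 0.0189). Leaving out Ascl2 KO replicate 2 (adjusted p = 0.130) or wild-type replicate 1 (0.0533) ended that call. Epcam did not pass, with 3287 and 3299 CPM in Ascl2 KO, against 2813, 1886 and 2917 CPM in wild type (0.38 ± 0.24, adjusted p = 0.253).

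Krt19, the short type I keratin that lacks a tail domain, had 10222 and 8808 CPM in Ascl2 KO, against 4264, 4735 and 5479 CPM in wild type. It rose by 0.98 ± 0.21 (log2, SE; adjusted p = 0.00630) relative to the median gene, and stood at -0.0044 when libraries were scaled by size alone, where the median gene stood at -1.001. Krt18, the usual partner of Krt8, had 2460 CPM and 2794 CPM in Ascl2 KO, against 1168, 2022 and 1200.5 CPM in wild type. Its log2 fold change was 0.84 ± 0.28 (adjusted p = 0.0440), and -0.15 by library size. That call was the least stable of the 4: it was lost when any library but wild-type replicate 2 was left out (adjusted p from 0.0592 to 0.180).

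Krt8 itself had 3299 and 3300.3 CPM in Ascl2 KO, against 3350 CPM, 3206 CPM and 4177 CPM in wild type (-0.12 ± 0.21, adjusted p = 0.710). Krt7 had 267 and 405 CPM in Ascl2 KO, against 377, 616 and 418 CPM in wild type (-0.49 ± 0.28, adjusted p = 0.213). Neither type II keratin passed on the TMM scale, and both passed by library size, at -1.09 for Krt8 (adjusted p = 0.00183) and -1.47 for Krt7 (adjusted p = 0.00459). Krt20 had 262 and 46.0 CPM in Ascl2 KO and was within the wild-type range in replicate 1 only. Krt23 had 28.7 and 49.1 CPM in Ascl2 KO, against 17.9, 32.4 and 16.1 CPM in wild type, with overlap (0.81 ± 0.39, adjusted p = 0.135).

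The summed CPM of several cell type lists was also higher in the Ascl2 KO libraries than in wild type, while that of the stem and tuft lists was lower. The 9 stem markers, Ascl2 among them, summed to 438 and 475 CPM in Ascl2 KO, against 1278, 1497 and 1256 CPM in wild type. Of 8 stem markers tested, 7 were called lower and 0 higher, beside 17.4% of all genes lower. Goblet markers summed to 12130 and 16391 CPM in Ascl2 KO, against 687 to 3822 CPM in wild type. Enteroendocrine markers summed to 1840 and 2499 CPM in Ascl2 KO, against 78.1 to 195 CPM in wild type. The summed CPM of the 12 colonocyte markers was 46041 and 33918 in Ascl2 KO, against 11092, 3644 and 21349 in wild type. Krt20 stood at 262 and 46.0 CPM in the same Ascl2 KO libraries, against 575, 52.9 and 688 CPM in wild type. The 7 deep crypt secretory markers summed to 30417 and 38095 CPM in Ascl2 KO, against 4032, 2563 and 5439 CPM in wild type, a sum that the regenerating libraries shared. Of the 8 immune markers, none was at 0 in Ascl2 KO (723 and 367 CPM in all), against 1 to 5 at 0 in wild type (1.32 to 34.6 CPM). The 8 stromal markers summed to 130.2 and 216 CPM in Ascl2 KO, against 11.2 to 25.04 CPM in wild type. These sums do not stand for every marker. Called higher were 2 of 8 goblet, 3 of 8 enteroendocrine, 4 of 12 colonocyte and 6 of 7 deep crypt secretory markers. Of the immune markers 3 of 8 were called higher, and of the stromal markers 5 of 8. In each of these lists 0 were called lower, beside 18.8% of all genes higher and 17.4% lower. The part of these cells in the member changes was not tested.

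Set directly against regenerating cells, Ascl2 KO cells differed in 4 of 9 members, beside 31.4% of all genes. Of these, 2 were higher, beside 15.4% of genes, and 2 lower, beside 16% of genes, and 8 of 9 members did not overlap, beside 69.8% of genes. Krt19 was higher by 1.53 ± 0.24 (log2, SE; adjusted p = 0.00157) and Krt23 by 2.53 ± 0.46 (adjusted p = 0.00323), at 28.7 and 49.1 CPM in Ascl2 KO and 6.998 and 6.44 CPM in regenerating cells. Both calls held when any library was left out. Cdh1 was lower by -0.97 ± 0.21 (adjusted p = 0.00759), a call that ended without Ascl2 KO replicate 1 (0.0563). Krt7 was lower by -0.998 ± 0.31 (adjusted p = 0.0360), a call that ended when regenerating replicate 1 (0.0745) or 2 (0.129), Ascl2 KO replicate 1 (0.205) or wild-type replicate 3 (0.0503) was left out. By library size the median gene stood at -0.84 (log2), and Cdh17 (-1.53, edgeR adjusted p = 0.00282) and Krt8 (-1.37, 0.00112) passed too. Cdh17 also passed without Ascl2 KO replicate 1 (0.0454). Krt18 passed in DESeq2 (0.0221), with only those groups (0.0481) and without wild-type replicate 2 (0.0280), and stood at -0.049 by library size. This comparison shares its Ascl2 KO libraries with the one before.

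Ratios between 2 members within a library do not depend on the scaling. For each Epcam read there were 0.0649 and 0.0742 Cdh1 reads in Ascl2 KO and 0.172 and 0.179 in regenerating cells, against 0.180, 0.259 and 0.178 in wild type. For each Krt8 read there were 3.10 and 2.67 Krt19 reads in Ascl2 KO and 0.592 and 0.766 in regenerating cells, against 1.27, 1.48 and 1.31 in wild type. The 3 groups thus did not overlap in this ratio, with Ascl2 KO above and regenerating cells below wild type. Reads of the type II keratins against those of the 4 type I keratins came to 0.275 and 0.317 in Ascl2 KO and 1.31 and 0.977 in regenerating cells, against 0.619, 0.559 and 0.622 in wild type. These are ratios of reads, not of molecules, since transcript lengths were not used, and they show unequal change rather than which gene moved.

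Among 9 lists of related genes, no gene passed in regenerating against wild-type cells (edgeR and DESeq2 alike). In Ascl2 KO against wild type, 18.8% of all genes were called higher and 17.4% lower, and 1233 and 5328 genes by library size. The desmosome list there had 1 gene higher and 3 lower of 8 tested (0 to 1 higher and 3 lower when 1 library was left out, 0 and 5 by library size). Jup, the plakoglobin shared by adherens junctions and desmosomes, had 33.0 and 46.5 CPM in Ascl2 KO, against 226 to 316 CPM in wild type (-2.72 ± 0.29, adjusted p = 0.000187). Pkp3, a plakophilin of the desmosomal plaque, fell by 1.53 on the log2 scale (adjusted p = 0.00204). Of 10 adherens junction partners, 1 was higher and 3 were lower (1 and 6 by library size). Mllt4, or afadin, which links nectins to actin, was the higher one, at 455 and 474 CPM in Ascl2 KO, against 52.1 to 88.9 CPM in wild type (2.77 ± 0.25, adjusted p = 9.1e-05).

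Epcam's partners split in Ascl2 KO cells, with 3 higher and 2 lower of 6 tested, and 1 higher by library size. Cldn3, a claudin of tight junctions, had 3245 and 3332 CPM in Ascl2 KO, against 776 to 929 CPM in wild type (1.95 ± 0.22, adjusted p = 0.000229). St14, the protease matriptase that can cleave Epcam, had 65.7 and 72.3 CPM in Ascl2 KO, against 242 to 247 CPM in wild type (-1.82 ± 0.19, adjusted p = 0.000157). Over all genes, 18.8% were higher and 17.4% lower, and 1233 and 5328 genes by library size. Of 19 epithelial transcription factors, 2 were higher and 8 lower (1 and 5 to 9 when 1 library was left out, 0 and 15 by library size). Esrp2, a splicing regulator of epithelia held in that list, fell by 2.95 (adjusted p = 0.000424) and the intestinal homeobox gene Cdx2 by 2.17 (0.00431) on the log2 scale. Krt10, a keratin of stratified epidermis, had 57.6 and 80.7 CPM in Ascl2 KO, against 6.40 to 11.3 CPM in wild type (2.88 ± 0.33, adjusted p = 0.000249).

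In the embryonic hindgut most members were higher at E16 than at E11, while Cdh3 was lower. All 10 members differed among the ages by the F test, beside 63% of the 16481 genes tested. E16 set against E11 gave 8 members called, 7 higher and 1 lower, beside 55.7% of genes called (29.6% higher and 26.2% lower). The E16 and E11 libraries did not overlap for any of the 10 members, beside 78.2% of genes. The median over the 10 members was 1.41 (log2), beside 0.05 over all genes.

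Epcam was used to sort these cells, so its level describes the sort as well. It stood at 1112 and 911 CPM at E11, 1021 and 1226 CPM at E12, 1428 and 1393 CPM at E14, and 1176 and 1273 CPM at E16. None of the 4 pairs of ages tested passed for Epcam in the edgeR fit of all ages (0.28 ± 0.12 for E16 against E11, adjusted p = 0.0876). Other settings did call pairs. E14 against E12 passed in DESeq2 (0.0131), without a filter (0.0496), with only those ages (0.0328) and without E11 replicate 1 (0.0280) or 2 (0.0268). E16 against E14 passed with only those ages (0.0387), and E16 against E11 in DESeq2 (0.0076) and without E11 replicate 1 (0.0267). The F test over ages gave an adjusted p of 0.0400, and it was lost without E14 replicate 1 (0.138), E14 replicate 2 (0.113) or E16 replicate 2 (0.0655).

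Cdh1 peaked at E14 among the 4 ages. It had 304 and 315 CPM at E11, 482 and 538 CPM at E12, 1439.8 and 1466 CPM at E14, and 863 and 814 CPM at E16. Each step passed: E12 was above E11 by 0.72 ± 0.08 (log2, SE; adjusted p = 0.00951), E14 above E12 by 1.51 ± 0.08 (9.34e-05), and E16 below E14 by -0.79 ± 0.08 (0.000388). With only the E12 and E11 libraries in the fit, the first step had an adjusted p of 0.0667.

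Cdh3 stayed between 130.1 and 161 CPM at E11, E12 and E14 and then dropped. Its libraries stood at 158 and 145 CPM at E11, 142 and 130.1 CPM at E12, 156 and 161 CPM at E14, and 14.9 and 17.4 CPM at E16. The E16 level was 9.84-fold below that of E14 (log2 fold change -3.30 ± 0.13, adjusted p = 1.02e-05).

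Cdh17 was higher at each later age. It had 0 reads in both E11 libraries, then 15.5 and 14.5 CPM at E12, 251 and 230.4 CPM at E14, and 471 and 434 CPM at E16. With a floor of 3 reads over the E11 group, E12 was at least 288-fold higher (845 reads; adjusted p = 9.66e-05) and E16 at least 8664-fold higher (13415 reads; adjusted p = 1.01e-06). The step from E12 was 4.00 ± 0.12 (log2; adjusted p = 3.07e-05) for E14, and E16 was above E14 by 0.91 ± 0.10 (0.000866). No 2 ages overlapped for Cdh17.

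**Figure D2:**
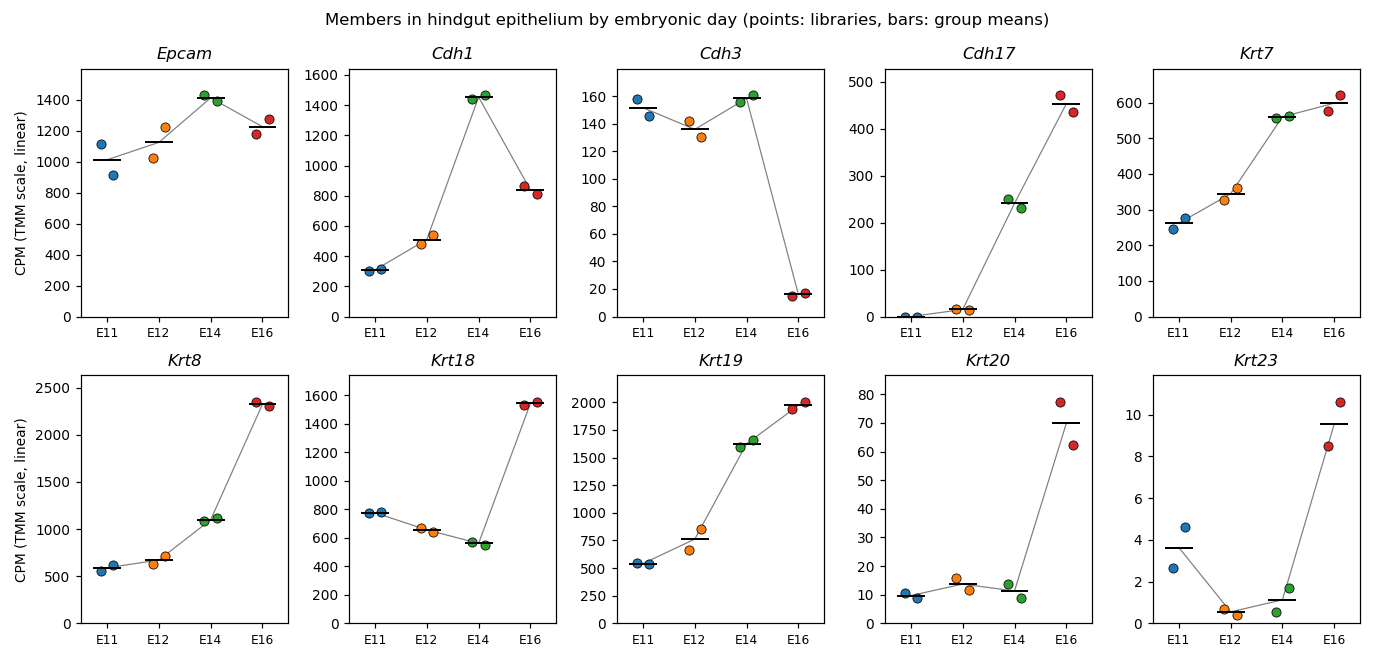
CPM of each member (linear axes from 0, TMM scale) at E11, E12, E14 and E16; points are the 2 libraries per age, bars their mean, and grey lines join the means. Cdh1 is highest at E14, Cdh3 drops to 14.9 and 17.4 CPM at E16, Cdh17 climbs from 0 reads, and Krt18 is lowest at E14 and highest at E16.

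The type II keratins rose in steps at different ages. Krt8 had 556 and 624 CPM at E11, 630 and 715 CPM at E12, 1082 and 1115 CPM at E14, and 2347 and 2300.1 CPM at E16. E14 was above E12 by 0.71 ± 0.09 (adjusted p = 0.00172) and E16 above E14 by 1.08 ± 0.09 (0.000162), while E12 and E11 did not differ past the threshold (0.19 ± 0.09, 0.292). Krt7, a keratin of ducts and of early gut, had 246 and 277 CPM at E11, 327 and 361 CPM at E12, 558 and 563 CPM at E14, and 576 and 621 CPM at E16. Its one step past the threshold in the edgeR fit of all ages was E14 against E12 (0.70 ± 0.10, adjusted p = 0.00211), and E16 and E14 gave 0.10 ± 0.09 (0.457). For Krt7, E12 against E11 passed in DESeq2 (0.00161).

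The type I keratins did not follow a common course. Krt18 had 773 and 781 CPM at E11, 669 and 645 CPM at E12, 573 and 551 CPM at E14, and 1535 and 1554 CPM at E16. E12 was below E11 by -0.24 ± 0.07 (edgeR adjusted p = 0.115), a step that passed in DESeq2 (0.000612). E16 was above E14 by 1.46 ± 0.07 (adjusted p = 2.05e-05). E14 was below E12 by -0.22 ± 0.07 (adjusted p = 0.0443), a call that ended when any 1 of the 8 libraries was left out (0.0581 to 0.359). Krt19 rose earlier, with 542 and 541 CPM at E11, 667 and 856 CPM at E12, 1592 and 1657 CPM at E14, and 1939 and 2001 CPM at E16. Its step past the threshold in the edgeR fit of all ages was E14 against E12 (1.09 ± 0.11, adjusted p = 0.000853), with 0.28 ± 0.11 (0.0837) for E16 against E14. The latter passed in DESeq2 (0.00676), with only those ages (0.00537) and without E12 replicate 1 (0.0164) or 2 (0.0168). For Krt19, E12 against E11 passed in DESeq2 (0.00129) and without E12 replicate 1 (0.0170).

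Krt20 and Krt23 were low until E16. Krt20 had 10.5 and 8.99 CPM at E11, 15.7 and 11.8 CPM at E12, 13.8 and 8.88 CPM at E14, and 77.3 and 62.4 CPM at E16, so E16 was above E14 by 2.62 ± 0.29 (adjusted p = 0.000485). Krt23 had 2.67 and 4.61 CPM at E11, 0.690 and 0.418 CPM at E12, 0.566 and 1.70 CPM at E14, and 8.50 and 10.6 CPM at E16. E16 was above E14 by 3.07 ± 0.71 (adjusted p = 0.0120), which was lost without E14 replicate 1 (0.0751) or E16 replicate 2 (0.0673). E16 and E11 did not differ past the threshold for Krt23 (1.39 ± 0.67, adjusted p = 0.110), but did in DESeq2 (0.0382). For Krt23, E12 was below E11 by -2.71 ± 0.71 (edgeR adjusted p = 0.0966), a step that passed in DESeq2 (0.00161).

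By step, 2 of 10 members passed in E12 against E11 (Cdh1 and Cdh17), beside 2.63% of genes (1.76% higher and 0.874% lower), and 9 members did not overlap, beside 43.4% of genes. DESeq2 called 6 members there, and a fit of those 2 ages alone called 1. For E14 against E12 the count was 6 of 10, 5 higher and 1 lower, beside 28.3% of genes (14.4% higher and 13.9% lower), and 8 members did not overlap, beside 70.1% of genes. For E16 against E14 it was 7 of 10, 5 higher (Cdh17, Krt8, Krt18, Krt20 and Krt23) and 2 lower (Cdh1 and Cdh3), beside 39.6% of genes (20.6% higher and 19% lower), and none of the 10 overlapped, beside 78.7% of genes without overlap. The last 2 counts are comparisons that share the E14 libraries.

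Markers of other cell types differed in level between the ages in these sorted cells. The 8 stromal markers, none of them at 0, summed to 8046 and 6655 CPM at E16, against 220 CPM and 257 CPM at E14. At E16 the 6 smooth muscle markers summed to 2467 and 2622 CPM and the 8 immune markers to 1431 and 1571 CPM, against 43.3 to 48.9 and 39.2 to 42.6 CPM at E14. The 6 squamous markers summed to 917 and 1204 CPM at E14, against 39.5 and 39.6 CPM at E12 and 95.4 and 105 CPM at E16. The 6 nephric duct markers, of which 2 to 4 were at 0 in the E16 and E14 libraries, summed to 49.1 and 63.1 CPM at E16, against 281 and 283 CPM at E14. That sum had stood at 491 and 416 CPM at E11 and 248 and 266 CPM at E12. In E16 against E14, 1 of these 6 markers was called lower and 0 higher. The same list summed to 216 to 3709 CPM in the adult colon libraries, with 1 to 4 markers at 0. Its sum therefore does not by itself show nephric duct cells. Epithelial lists differed too: at E16 the 12 colonocyte markers summed to 1080 CPM and 1237 CPM, against 30.0 and 27.9 CPM at E14. The 8 goblet markers summed to 5327 and 5402 CPM at E16, against 68.1 and 65.9 CPM at E14, and the 7 deep crypt secretory markers to 3447 and 4188 CPM at E16, against 31.0 and 27.8 CPM at E14. Their part in the member changes was not tested. Without the E14 libraries, no member changed its call in E12 against E11 or E16 against E11. Neither comparison uses those libraries, so leaving them out bears on the shared fit and not on the markers seen at E14.

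Within hindgut libraries the ratio of Cdh1 to Epcam reads was 0.273 and 0.346 in the E11 libraries, 0.472 and 0.439 in those of E12, 1.01 and 1.05 in those of E14, and 0.734 and 0.639 in those of E16, so the E14 peak of Cdh1 is seen in the ratio too. For each Cdh1 read there were 0.520 and 0.462 Cdh3 reads in the E11 libraries, 0.294 and 0.242 in E12, 0.108 and 0.110 in E14, and 0.0172 and 0.0214 in E16. Cdh17 reads per Cdh1 read stood at 0 in both E11 libraries, 0.0322 and 0.0270 in E12, 0.174 and 0.157 in E14, and 0.546 and 0.533 in E16. The last values lie within the 0.450 to 0.892 of the adult libraries, which were made with another kit from another strain and are set beside them with no test. Krt8 reads per Krt18 read were 0.719 and 0.799 in the E11 libraries, 0.941 and 1.11 in E12, 1.89 and 2.02 in E14, and 1.53 and 1.48 in E16. The sum of type II over type I reads moved less, between 0.604 and 0.821 over the 8 libraries.

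**Figure D3:**
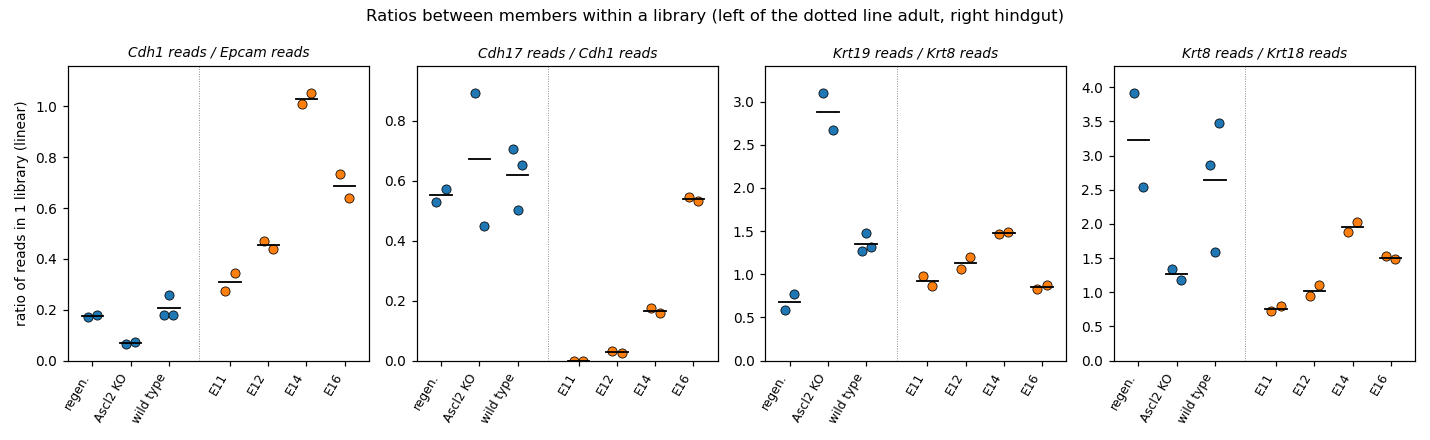
Ratios of reads between 2 members within each library (linear axes from 0), for regenerating, Ascl2 KO and wild-type cells on the left of the dotted line and E11 to E16 on the right; points are libraries and bars group means. Krt19 reads per Krt8 read separate the adult groups (2.67 and 3.10 in Ascl2 KO, 0.592 and 0.766 in regenerating cells, 1.27 to 1.48 in wild type), and Cdh17 reads per Cdh1 read climb with embryonic age.

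The 6 member keratins held nearly all keratin reads among the 52 keratin genes of the table, except at E14. Their share of summed keratin CPM was 95.8% at E11, 97.4% at E12, 80.5% at E14 and 99.2% at E16, and 99.0% in regenerating, 98.6% in Ascl2 KO and 99.6% in wild-type libraries. The rest at E14 was mainly Krt15, a basal keratin of stratified epithelia, at 597 and 787 CPM, which was at 14.8 and 20.2 CPM at E12 and 9.25 and 9.67 CPM at E16 (5.30 ± 0.63 for E14 against E12, adjusted p = 0.00133). Krt17, induced in stressed and appendage epithelia, had 95.5 and 96.4 CPM at E14, against 0.418 and 0.653 CPM at E12 (7.47 ± 1.00, adjusted p = 0.00206). Of the stratified keratins tested, 4 of 9 were higher and 1 lower at E14 against E12 (2 to 6 and 0 to 1 when 1 library was left out). Of all genes, 14.4% were higher and 13.9% lower.

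At E14 against E12, 6 of 10 adherens junction partners were higher and 1 was lower, beside 14.4% of all genes higher and 13.9% lower. Of 8 desmosome genes tested, 6 were higher and 0 lower in E14 against E12 (4 to 7 higher when 1 library was left out). Jup had 333 and 444 CPM at E14, against 139 and 144 CPM at E12 (1.46 ± 0.15, adjusted p = 0.000779). Of 5 keratin linkers, the plakins and their kin that tie filaments to membranes, 4 were higher. Ppl had 77.1 and 95.8 CPM at E14, against 13.8 and 15.1 CPM at E12 (2.58 ± 0.19, adjusted p = 0.000205), and Evpl 69.3 and 74.8 CPM at E14, against 9.06 and 17.3 CPM at E12 (2.45 ± 0.30, adjusted p = 0.00140). Of 19 epithelial transcription factors, 12 were higher and 1 lower, among them Hnf4a (2.95 ± 0.28, adjusted p = 0.000589), a regulator of enterocyte genes.

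At E16 against E14, 20.6% of all genes were called higher and 19% lower. Of 6 cadherin repressors 4 were higher and 0 lower (2 to 5 higher when 1 library was left out). Zeb2 had 97.8 and 125 CPM at E16, against 3.24 and 6.05 CPM at E14 (4.58 ± 0.52, adjusted p = 0.000545), and Snai2 131 and 137 CPM at E16, against 6.01 and 7.71 CPM at E14 (4.29 ± 0.77, adjusted p = 0.00396). Vim, the filament of mesenchymal cells, had 205 and 218 CPM at E16, against 49.9 and 55.5 CPM at E14 (2.01 ± 0.12, adjusted p = 4.78e-05). These genes stood beside the stromal sums given above. Of 8 desmosome genes, 4 were lower (1 to 5 when 1 library was left out), with Dsp, the desmoplakin that anchors keratins, at 63.7 and 69.5 CPM at E16, against 154 and 167 CPM at E14 (-1.27 ± 0.16, adjusted p = 0.000943). The protocadherins of the brush border rose, Cdhr2 by 2.32 ± 0.34 (adjusted p = 0.00163) and Cdhr5 by 2.87 ± 0.42 (0.00171).

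Genes with the course most like that of a member were found by Pearson's r of log2(CPM + 0.5) over the libraries of a set. Over the 8 hindgut libraries these were Trp53i11 (0.998), Gprc5a and Zc3h18 for Cdh1, Ddx46 (0.997), Wfdc2 (0.996) and Zfp644 for Cdh3, and Clrn3 (0.999), Stambpl1 and Ly6g6e for Cdh17. Wfdc2 is also among the nephric duct markers above. For Krt20 they were Ccr2 (0.990), Mlx and Lamp1, and for Krt23 Id4 (0.973), Slc25a28 and Nrarp. Over the 7 adult libraries the list was led by Cyp4f14 (0.966) for Krt20, C1qtnf6 (0.949) for Krt23 and Mgat5 (0.954) for Cdh3. Adult Cdh3 was near the floor, with 67 reads in regenerating replicate 2 and 0 to 6 in each other library. Its r therefore depends largely on that replicate. The points share library, depth and age group, and such values are a description.

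On day 8 of regeneration, 3358 cells with a median of 20846.5 unique molecular identifiers (UMIs) passed the filters. They were clustered on genes that did not include the members, any other keratin or the junction lists. With 1 library there is no test, and 95% intervals are exact and cover counting error only. Over all cells, Epcam had 2351 CPM of summed UMIs and Krt8 2333 CPM. Of the cells, 99.6% held an Epcam UMI, 99.1% a Krt18 UMI and 91.2% a Cdh1 UMI. Krt20 UMIs were found in 9.35% of cells and Krt23 UMIs in 9.98%. Cdh3 had 18 UMIs in 18 cells (0.536% of cells), of which 7 UMIs each were in clusters 8 and 9, a level of 0.221 CPM in cells, against 0.165 CPM (1 UMI) in droplets with at most 100 UMIs.

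**Figure D4:**
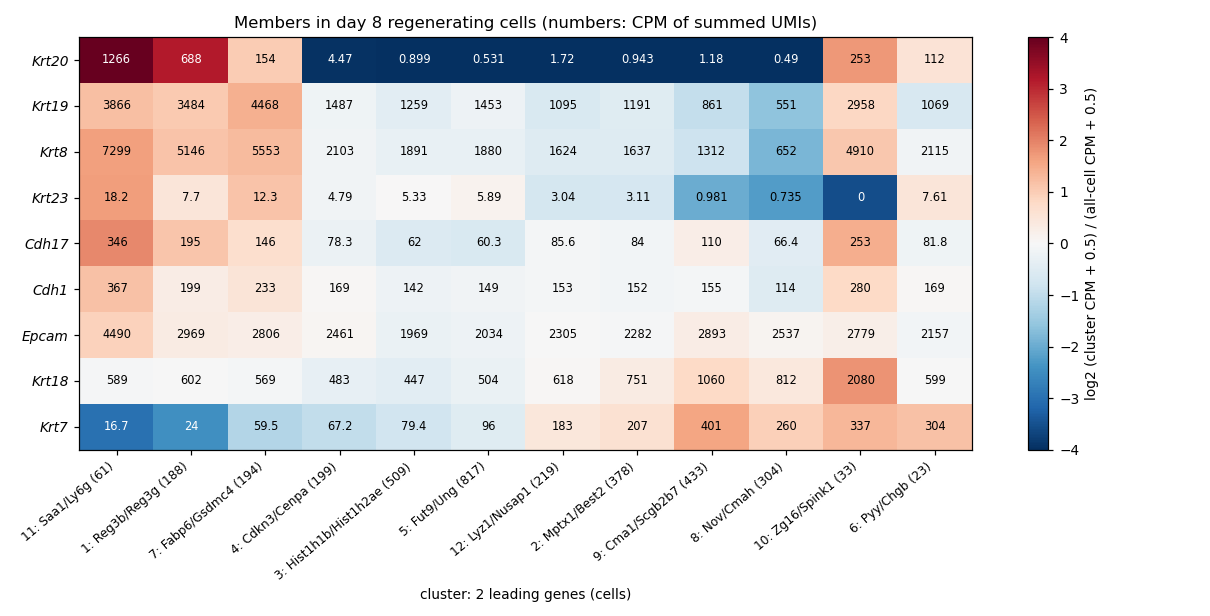
CPM of summed UMIs of 9 members (rows) in 12 clusters of day 8 regenerating cells (columns, with their 2 leading genes and number of cells); color gives log2 of cluster CPM + 0.5 over all-cell CPM + 0.5. Krt20, Krt8 and Krt19 are high on the left, in clusters 11, 1 and 7, and Krt7 on the right, in clusters 9, 10, 6 and 8, of which 10 and 6 also hold Krt20; Cdh3 (18 UMIs) is left out.

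Krt20 differed between clusters by the largest ratio among the 9 members shown other than Krt23, which had no UMI in a cluster. It reached 1266 CPM (interval 1207 to 1327) in the 61 cells of cluster 11, which is colonocyte-like by Saa1, Car4 and Aqp8. It had 688 CPM (665 to 713) in the 188 cells of cluster 1, led by Reg3b and Reg3g, 253 CPM (204 to 310) in goblet-like cluster 10, and 154 CPM (144 to 163) in cluster 7, led by Fabp6 and Gsdmc4. The intervals of these 4 clusters do not overlap. Enteroendocrine-like cluster 6 had 112 CPM (85.4 to 145), with a Krt20 UMI in 43.5% of its 23 cells. Clusters 2, 3, 4, 5, 8, 9 and 12 lay between 0.490 and 4.47 CPM, whereas droplets with at most 100 UMIs had 71.3 CPM.

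Thinned to 2000 UMIs per cell, 95.1% of cluster 11 and 44.7% of cluster 1 held a Krt20 UMI, against 0.329% of cluster 8 and 0.231% of cluster 9. Before thinning these shares were 100% and 52.1%, against 0.658% and 1.39%. Median UMIs per cell were 22158 in cluster 11, 18619.5 in cluster 1, 13319 in cluster 8 and 11483 in cluster 9.

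Krt7 was lowest where Krt20 was highest, in clusters 11 and 1, but clusters 10 and 6 held both and clusters 3, 4 and 5 were low for both. Deep crypt secretory-like cluster 9, with Cma1, Ccl6 and Reg4 among its leading genes, had 401 CPM (384 to 419), followed by 337 CPM (280.4 to 402) in goblet-like cluster 10 and 304 CPM (259 to 355) in enteroendocrine-like cluster 6, whose intervals overlap. Cluster 8 had 260 CPM (245 to 276). It held deep crypt secretory markers too, at a summed 77288 CPM against 61526 CPM in cluster 9, with Retnlb and Spink4 among its leading genes. Colonocyte-like cluster 11 had 16.7 CPM (10.6 to 25.1) and cluster 1 had 24.0 CPM (19.7 to 28.8). After thinning, 53.6% of cluster 9 held a Krt7 UMI, against 4.92% of cluster 11 and 4.26% of cluster 1. Few-UMI droplets had 114 CPM of Krt7, above the level of clusters 1, 3, 4, 5, 7 and 11 and below that of the other 6.

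Krt8 and Krt19 were highest in clusters 11, 7 and 1. Krt8 reached 7299 CPM in cluster 11, 5553 in cluster 7, 5146 in cluster 1 and 4910 CPM in cluster 10, and was lowest at 652 CPM in cluster 8, led by Nov, Cmah and Muc2. Krt19 had 4468 CPM in cluster 7, 3866 in cluster 11 and 3484 in cluster 1, and 551 CPM in cluster 8. Krt18 lay between 447 and 1060 CPM in 11 clusters, with 2080 CPM in goblet-like cluster 10. The UMI ratio of Krt8 to Krt18 was therefore 12.4 in cluster 11, 9.77 in cluster 7 and 8.55 in cluster 1, against 1.24 in cluster 9 and 0.803 in cluster 8. Krt8 to Krt19 stayed between 1.18 and 1.98 in all 12 clusters.

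Cdh17 had 346 CPM in cluster 11, 253 in cluster 10 and 195 in cluster 1, and 60.3 CPM in S phase-like cluster 5. Cdh1 had 367 CPM in cluster 11 and 114 CPM in cluster 8. Cdh17 UMIs per Cdh1 UMI were 0.981, 0.941 and 0.903 in clusters 1, 11 and 10 and lay between 0.404 and 0.711 in the other 9. Epcam ranged from 1969 CPM in histone-led cluster 3 to 4490 CPM in cluster 11. Krt23 was sparse, with 433 UMIs in all; it had 18.2 CPM (11.8 to 26.9) in cluster 11 and 0.735 CPM (0.152 to 2.15) in cluster 8. No Krt23 UMI was seen in the 33 cells of cluster 10, where a count of 0 is compatible with up to 10.0 CPM (exact 95% bound).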

How the data were processed

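Bulk RNA sequencing (15 libraries) and 1 single-cell library were used; 3 ChIP libraries were not analysed here. Bulk values are the counts per gene that the authors deposited, made with STAR 2.5.3a and HTSeq on mm10 per the submitters' processing notes; annotation and strand setting are not given in the sources used here. Single-cell values are deposited UMI counts from Cell Ranger 3.0.2, per the submitters' processing notes. In the bulk table, 5 rows that name no gene were left out. Genes were kept by edgeR's filterByExpr, scaled by TMM and tested by edgeR 4.0.16 quasi-likelihood F tests (R 4.3.3) in 1 fit of the 7 adult and 1 of the 8 hindgut libraries, with Benjamini-Hochberg adjustment over 13911 and 16481 genes and a threshold of 0.05. The script was tested on simulated counts. Gene counts summed to between 13826958 and 30583908 per library, so small counts limit Cdh3 and Krt23. Alternatives were DESeq2 1.42.0, library size scaling, no filter, a replicate block, only the groups compared and each library left out; leaving out the E14 libraries was added after seeing the data.

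Cells had at least 2000 UMIs, at least 500 genes and under 20% mitochondrial UMIs, and were clustered with scanpy 1.11.5 (Leiden resolution 0.6, 30 principal components, 2000 variable genes, 15 neighbours). The doublet caller marked 0 cells, so it did not work and doublets were not removed. Intervals are exact Poisson or binomial at 95%. All members are reported; other genes are named from fixed lists or, for likeness of course, as the 3 highest correlations. The members and lists were chosen with earlier results of these data known. Same-numbered replicates did not deviate together (correlations of -0.029 to 0.107), so the numbers were not taken as pairs.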

Additional observations from a re-analysis of the deposited data

How the results depend on the processing

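Of 984 alternative values for 77 member results, 904 kept their direction and side of the threshold. A further 19 changed sign, and were counted as such whether or not they also crossed the threshold. Of those with no sign change, 30 newly passed and 31 no longer passed. Library size scaling gave 8 of the sign changes and leaving out 1 library 8. In Ascl2 KO against wild type, library size scaling gave -0.60 for Epcam, which newly passed (edgeR adjusted p = 0.0469). It gave -0.15 for Krt18 (0.718) and -0.0044 for Krt19 (0.989), which no longer passed, and -0.17 for Krt23. In Ascl2 KO against regenerating cells, library size scaling gave -0.43 for Epcam and -0.049 for Krt18. In regenerating against wild-type cells, Epcam stood at -0.17 by library size, -0.027 in DESeq2, -0.025 with only those groups, and between -0.17 and 0.12 when 1 library was left out; Krt18 stood at -0.10 by library size and between -0.15 and 0.40 when 1 library was left out. Krt8 in Ascl2 KO against wild type lay between -0.21 and 0.013 with 1 library left out (the highest without wild-type replicate 3), Krt20 in Ascl2 KO against regenerating cells between -0.65 (without Ascl2 KO replicate 1) and 2.64, and Krt20 in E14 against E12 between -0.60 and 0.040 (without E14 replicate 2). Members called in regenerating against wild-type cells numbered 1 in DESeq2 and 1 without a filter; in E12 against E11 they numbered 6 in DESeq2 and 1 with only those ages. With 1 library left out, 2 to 5 members passed in Ascl2 KO against wild type and 3 to 5 in Ascl2 KO against regenerating cells. With the replicate number as a block, Krt18 in E14 against E12 (adjusted p = 0.0740) and Epcam over the ages (0.0611) no longer passed, and Krt8 in Ascl2 KO against wild type stood at 0.011; the block changed no other member's call. The cause of these changes was not tested. Of 1376 values for 106 named pathway results, 1283 kept their call and 93 no longer passed. Low counts limit Cdh3 in adult cells and Krt23 before E16.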
